A study of Mus musculus with 18 samples.

Results

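The genes described here are 9 genes of the MHC class II antigen presentation pathway, namely H2-Aa, H2-Ab1, H2-Eb1, Cd74, Ciita, H2-DMa, H2-DMb1, Cd80 and Cd86. They were chosen by gene symbol from the 34745 genes of 1 RNA sequencing table of mouse bone marrow-derived macrophages (BMDMs). No rule on their levels was used, but earlier results of these data were known when they were chosen. All 9 passed the filter on low counts and stood among the 14241 genes tested.

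MHC class II molecules present peptides from proteins taken up by the cell to CD4+ T cells. Each molecule is a pair of an alpha and a beta chain that is built on the invariant chain, encoded by Cd74, which holds the peptide groove until the proteins of the H2-DM genes exchange the last fragment of it for a peptide. CIITA, the product of Ciita, is the co-activator that turns on these genes together through factors bound to the X and Y boxes of their promoters, and macrophages raise it in response to interferon gamma. CD80 and CD86 are the co-stimulatory ligands of CD28, which a T cell reads beside the peptide. M-CSF and RANKL turn macrophage precursors into osteoclasts, the cells that break down bone.

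The study asked how loss of Zmat1 acts on osteoclast formation. BMDMs came from 4-to-8-week-old global Zmat1 knockout mice on a C57BL/6 background and from wild-type littermates, all cells had M-CSF (for 3 days before RANKL by the series' design text, and for 4 days by the methods), and RANKL was then given for 0, 1 or 3 days. There were 3 libraries for each label (WT or KO) on each day, 18 in all, with 13789775 to 17559958 counts each. The sources used here do not say whether the libraries of a group came from separate mice, so p-values measure the spread between these libraries, which may be technical.

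Some facts of the whole table touch the results. The counts of Zmat1 itself were not lower under the KO label, and were 32 to 91 in the 9 libraries labelled WT and 49 to 99 in the 9 labelled KO, and the log2 fold change of KO over WT was 0.24 to 0.63 with no day past the threshold (edgeR, adjusted p of 0.615 to 0.930). Which stretch of the gene was deleted is not given in the sources used here, so reads from outside it may be counted, and this count cannot check the labels. The study genotyped the mice by PCR and also checked Zmat1 mRNA by qPCR in BMDMs of both genotypes. The groups are called by their labels. A double hyphen stood in 5 of the 18 titles, and 23.2% of all genes tested differed between the styles of title at an adjusted p under 0.05, against 0 of the 9 genes here (H2-Ab1 had the largest log2 difference, 0.80 higher with a double hyphen, SE 0.399, adjusted p = 0.161). None of the 5 was from day 3, so style is partly mixed into each comparison of day 3 with day 0. Of the lists used below, 4 of 6 stromal and 4 of 8 tested dendritic cell markers were lower with a double hyphen. Of 9 osteoclast markers 3 were lower and 1 higher. Of 10 genes of the interferon gamma axis and 6 of peptide processing, 3 each were higher. Some genes of other lists were called too. On day 1 the WT group held both a single-hyphen and a double-hyphen library numbered 1, and they are told apart by that hyphen below. The macrophage markers Lyz2, Csf1r and Adgre1 stood at means of 34320.2, 5753 and 1868 CPM (read counts scaled to library size with TMM factors) in WT on day 0. After 3 days of RANKL 8 of the 9 osteoclast markers listed were higher in both labels, Nfatc1, the master factor of osteoclast formation, by 2.53 (SE 0.203) in WT and 2.17 (SE 0.200) in KO on the log2 scale. Csf1r, Adgre1 and Nfatc1 are named here as defining genes, after their values were seen.

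By the table's positions (GRCm38) the 5 H2 genes lie within 181 kb of the MHC region (chr17:34135182-34316199). Ciita (chr16:10488178-10527564), Cd86 (chr16:36603869-36666081) and Cd80 (chr16:38458933-38486933) lie together on chromosome 16. Ciita overlaps Dexi on the opposite strand, which had 2892 counts over all libraries against 2099 for Ciita, and since the counting strand is not given in the sources used here, their reads may not be fully told apart. H2-DMb1 has a near-identical copy, H2-DMb2, so the division of reads between these 2 genes is uncertain.

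Since CIITA acts through the X and Y boxes of promoters, the promoters were searched for their letters before the levels are given. RefSeq promoters (GRCm38.p6, 250 bases before to 50 after the start) were given for 5 of the 9 genes, H2-Aa, H2-Eb1, H2-DMa, H2-DMb1 and Cd80. The Y box was searched as CCAAT on either strand, and the core of the X1 box as a G, any 2 bases, AC, any base and GATG, on either strand. An X1 core followed 10 to 30 bases later on the same strand by ATTGG, the Y box read backwards, was found in H2-Eb1 and H2-DMb1. H2-Aa held ATTGG at a like distance from its start with no match to the X1 core. The 3 stretches follow, 5′ to 3′ on the strand of the gene, with the matched X1 core and ATTGG in capitals.
H2-Eb1: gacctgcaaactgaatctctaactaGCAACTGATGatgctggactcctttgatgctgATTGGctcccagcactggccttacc
H2-DMb1: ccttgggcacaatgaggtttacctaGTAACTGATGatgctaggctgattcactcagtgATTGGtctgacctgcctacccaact
H2-Aa: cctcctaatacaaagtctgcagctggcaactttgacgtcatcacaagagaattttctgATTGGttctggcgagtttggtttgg
They lie at chr17:34305751-34305832 (plus strand), chr17:34153072-34153154 (plus strand) and chr17:34287847-34287929 (minus strand). The X1 core began 91 bases before the RefSeq start in H2-Eb1 and 94 bases before it in H2-DMb1, with 22 and 23 bases between core and ATTGG.

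These letters were rare as a pair. CCAAT was found in 37.4% of all 32851 RefSeq promoters, the X1 core in 2.97%, and the pair in 23 promoters (0.07%) of 21 genes. Of these 21 genes, 8 have symbols that begin with H2-, the class II genes H2-DMb1, H2-Eb1 and H2-Eb2 and the class I genes H2-D1, H2-Q4, H2-Q6, H2-Q7 and H2-M3. Neither Cd80 nor the 2 RefSeq promoters of H2-DMa, which lie upstream of the table's start of that gene, held the pair. A match describes letters and is no evidence of a factor at the site. Lack of a match to this strict pattern, as in H2-Aa, does not show that an X box is absent. The table's own start of H2-DMb1 (34153072) lies upstream of the RefSeq start, so in that model its pair falls inside the gene.

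After 3 days of RANKL, 8 of the 9 genes had fallen in both labels, and Cd80 had not passed the test in either. Over all genes tested, 26.5% were lower and 23.7% higher in WT, and 22.3% were lower and 20.2% higher in KO (edgeR, adjusted p under 0.05). The median log2 fold change of the 9 genes was -3.70 in WT and -3.04 in KO, against medians of -0.03 and -0.01 over all genes tested. In all 8 genes, in both labels, the highest day 3 library lay below the lowest day 0 library, as it did for 31.0% of all genes tested in WT and 29.4% in KO. In bulk RNA, fewer cells that express a gene and less RNA per cell cannot be told apart.

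The 3 classical chains and Ciita had the largest fitted falls of the 9 genes in WT. H2-Aa, the alpha chain of I-A, stood in WT at 112, 24.2 and 69.9 CPM on day 0 (libraries 1, 2 and 3) and at 1.39, 4.53 and 2.64 CPM on day 3. In KO it stood at 158, 96.1 and 221 CPM on day 0 and at 13.5, 3.92 and 27.9 CPM on day 3. The days did not overlap in either label, and the day 0 libraries of a group themselves spread over several-fold. The log2 fold change was -4.59 (SE 0.871, adjusted p = 0.00069) in WT, 24.1-fold lower, and -3.39 (SE 0.800, adjusted p = 0.00415) in KO, 10.5-fold lower.

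H2-Ab1, the beta chain that pairs with H2-Aa, was the most abundant of the 3 classical chains by CPM. Its WT libraries held 183, 43.1 and 91.6 CPM on day 0 and 4.65, 7.70 and 6.40 CPM on day 3. Its KO libraries held 217, 144 and 279 CPM on day 0 and 22.2, 12.2 and 40.0 CPM on day 3. Days 0 and 3 did not overlap in either label, and the log2 fold changes were -4.08 (SE 0.674, adjusted p = 0.000255) in WT and -3.10 (SE 0.635, adjusted p = 0.00172) in KO. H2-Eb1, the beta chain of I-E, went from 73.9, 16.4 and 50.8 CPM to 2.53, 4.12 and 3.03 CPM in WT, and from 107, 66.3 and 185 CPM to 10.7, 6.79 and 25.9 CPM in KO. It fell by 3.87 (SE 0.784, adjusted p = 0.00111) and by 3.04 (SE 0.735, adjusted p = 0.00475). The alpha chain of I-E is the pseudogene H2-Ea-ps in C57BL/6 mice, and it had 0 counts in every library.

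Cd74, the invariant chain, had the highest mean level of the 9 genes in every group. In WT it stood at 538, 139 and 315 CPM on day 0 and at 20.3, 36.4 and 19.6 CPM on day 3, and in KO at 614, 388 and 921 CPM and then at 46.2, 19.5 and 115 CPM. On the log2 scale Cd74 fell by 3.70 (SE 0.676, adjusted p = 0.000531) in WT and fell by 3.41 (SE 0.665, adjusted p = 0.00125) in KO. Library 3 was the highest of the KO day 3 group for this gene and for the 3 classical chains, at over 2 times the next library for Cd74.

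Ciita, the co-activator, was the least abundant of the 9 genes per length in every group. Its WT libraries held 22.2, 15.3 and 6.15 CPM on day 0 and 1.14, 0.47 and 1.07 CPM on day 3, the latter from 22, 8 and 19 counts. Its KO libraries held 19.8, 15.0 and 23.7 CPM and then 1.55, 0.612 and 2.44 CPM. It fell by 4.01 (SE 0.774, adjusted p = 0.000782) in WT and by 3.66 (SE 0.749, adjusted p = 0.00172) in KO on the log2 scale.

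The 2 genes of the peptide editor H2-DM, which works as a dimer, did not fall alike. H2-DMa went from 77.2, 42.8 and 38.3 CPM to 6.66, 6.70 and 3.14 CPM in WT and from 63.3, 64.2 and 85.6 CPM to 13.2, 7.16 and 26.6 CPM in KO. H2-DMb1 went from 70.2, 42.8 and 42.7 CPM to 24.6, 22.3 and 16.1 CPM in WT and from 69.3, 56.8 and 80.4 CPM to 32.1, 24.9 and 34.6 CPM in KO. H2-DMa fell by 3.26 (SE 0.603, adjusted p = 0.000577) in WT and by 2.18 (SE 0.569, adjusted p = 0.00751) in KO on the log2 scale. H2-DMb1 fell by 1.30 (SE 0.283, adjusted p = 0.00177) and by 1.17 (SE 0.281, adjusted p = 0.00454). The difference between the 2 genes was not tested, and H2-DMb1 is the gene whose reads may be divided with its copy.

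Of the co-stimulatory ligands, Cd86 fell and Cd80 was not called. Cd86 stood at 24.98, 34.2 and 23.7 CPM on day 0 and at 7.48, 13.5 and 7.01 CPM on day 3 in WT, and at 22.7, 22.5 and 18.3 CPM and then 6.97, 7.71 and 8.16 CPM in KO. It fell by 1.57 (SE 0.320, adjusted p = 0.00118) in WT and by 1.47 (SE 0.322, adjusted p = 0.00258) in KO on the log2 scale. Cd80 stood at 11.6, 15.2 and 7.79 CPM on day 0 and at 12.9, 14.7 and 11.8 CPM on day 3 in WT, with 10.8, 14.6 and 9.83 CPM and then 10.6, 10.8 and 16.2 CPM in KO. Its days overlapped in both labels, with log2 fold changes of 0.19 (SE 0.2498, adjusted p = 0.548) and 0.09 (SE 0.2498, adjusted p = 0.782), which does not show that its level was the same.

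**Figure D1:**
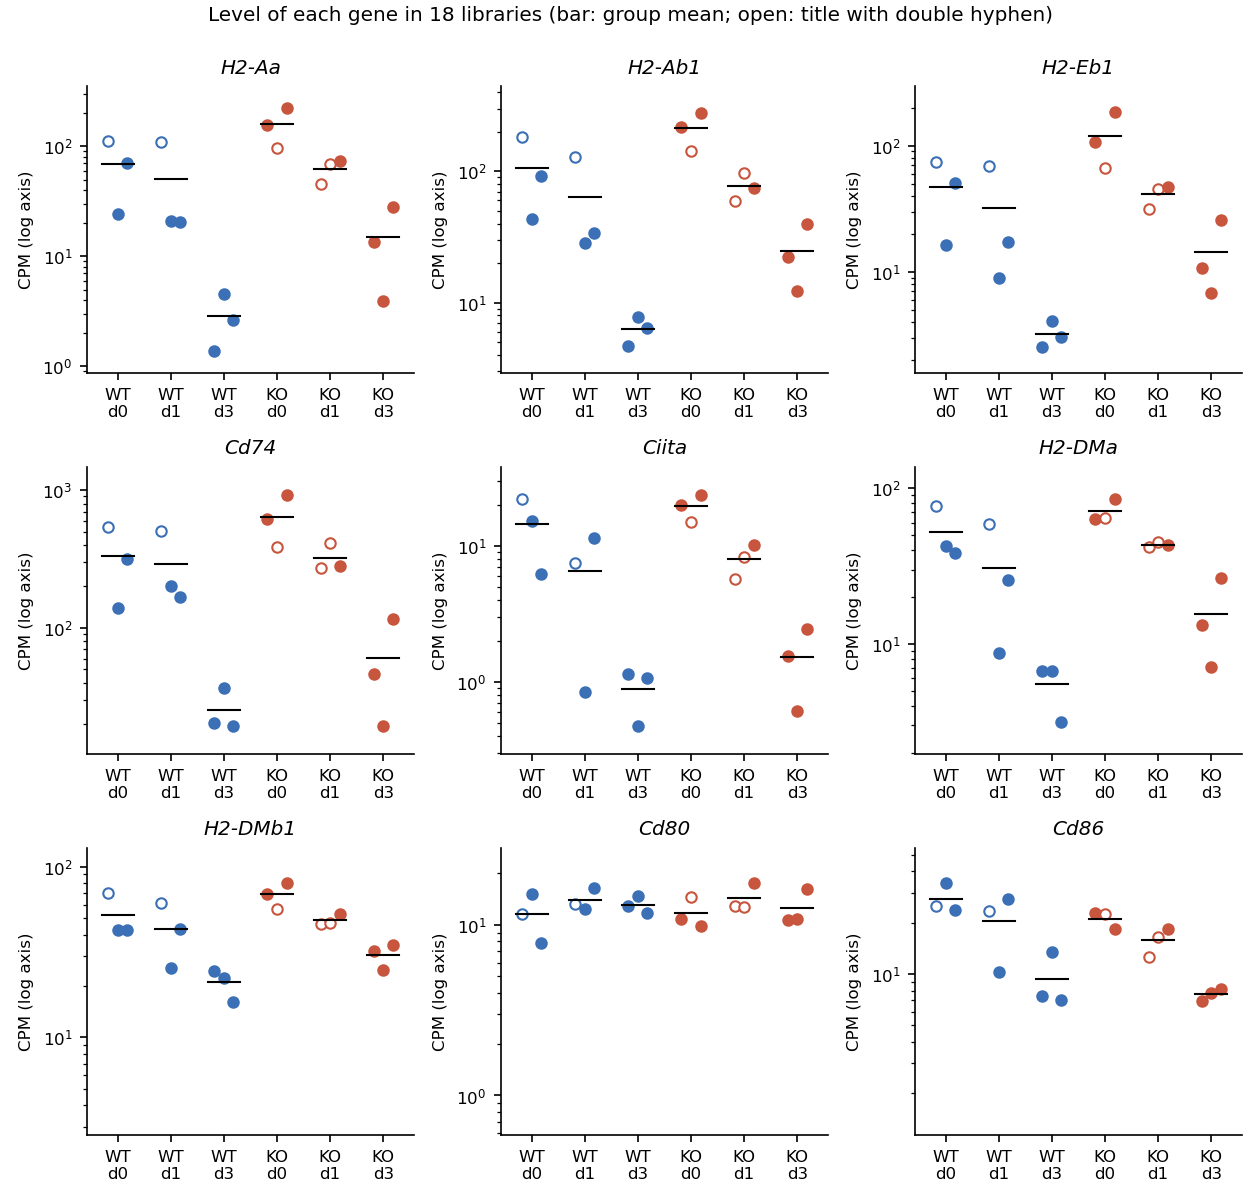
Level of each of the 9 genes in CPM on a log axis, 1 panel a gene, in the 18 libraries by label and day of RANKL. Points are libraries, open where the title has a double hyphen, and bars are means of 3 libraries. Cd80 is the gene whose day 3 and day 0 libraries overlap in both labels, and H2-Aa reaches the largest fall in WT, to 1.39 to 4.53 CPM.

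The same 8 genes passed the threshold in each of the 15 alternative fits tried for each label. Single libraries still moved the size of the fall by over 1.5 times. Without KO day 3 library 3 the log2 fold changes in KO became -4.19 for H2-Aa, -3.77 for H2-Eb1, -4.29 for Cd74 and -2.80 for H2-DMa, and without WT day 0 library 1 that of H2-Ab1 in WT became -3.40. Without the 5 double-hyphen libraries those in WT became -3.99 for H2-Aa, -3.37 for H2-Ab1 and -3.09 for Cd74.

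Levels of different genes can be set side by side only per length, for which the deposited FPKM values (fragments per kilobase of transcript, scaled to depth) serve. Cd74 ranked first and Ciita last of the 9 in all 6 groups. On day 0 Cd74 stood at 148 ± 82.6 FPKM in WT and 302 ± 139 FPKM in KO (mean ± SD, n = 3), while H2-Ab1 stood at 40.2 ± 24.9 and 85.4 ± 31.3 FPKM and H2-Eb1 at 35.6 ± 20.7 and 95.5 ± 52.0 FPKM. Neither H2-Ab1 nor H2-Eb1 was the higher per length in all 3 day 0 libraries of a label, and their difference was not tested. On day 3 in WT, H2-DMb1 (14.8 ± 2.88 FPKM) had come level with Cd74 (14.8 ± 5.21 FPKM), and Cd80 (9.03 ± 0.803 FPKM) had rank 3, from rank 7 on day 0. H2-Aa went from rank 5 on day 0 (24.0 ± 14.3 FPKM) to rank 8 (1.30 ± 0.697 FPKM). In KO on day 3 Cd80 had rank 5 at 8.32 ± 1.75 FPKM, below H2-Ab1 at 11.8 ± 6.25 FPKM and beside H2-DMa at 7.96 ± 4.75 FPKM, 3 levels that did not differ beyond their spread.

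**Figure D2:**
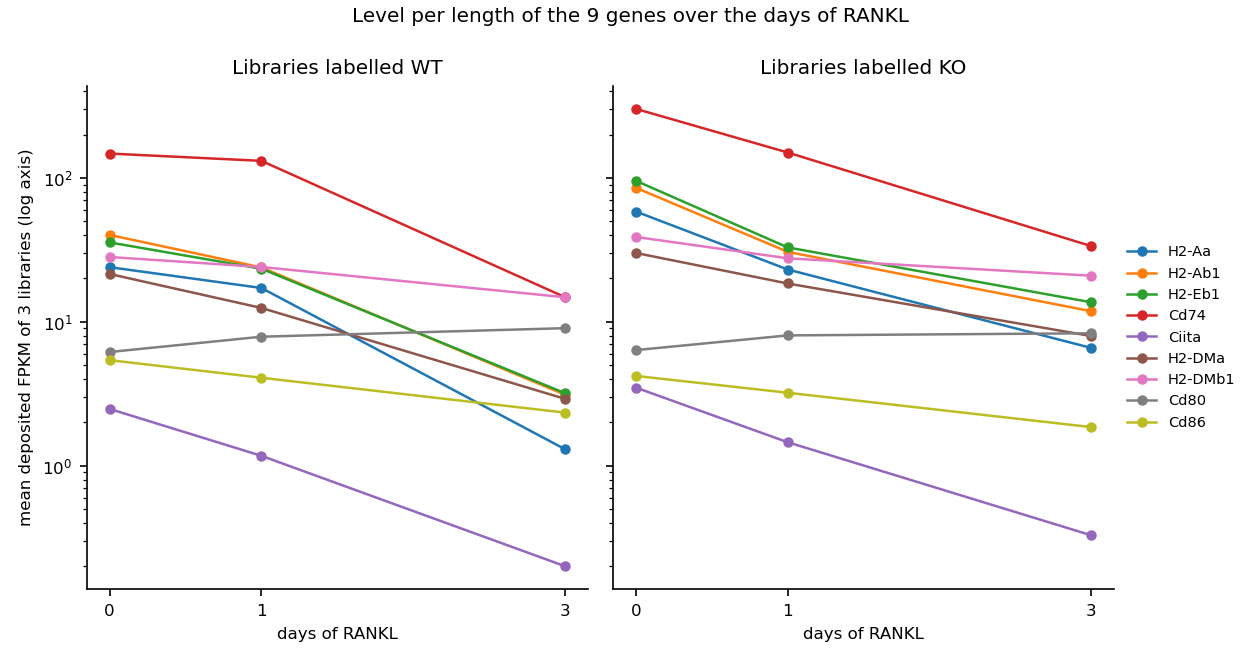
Mean deposited FPKM of 3 libraries for each of the 9 genes on a log axis against days of RANKL, with libraries labelled WT on the left and KO on the right; the spread between libraries is not drawn. The lines of the 3 classical chains and Cd74 drop mostly between days 1 and 3 in WT. In KO they also drop between days 0 and 1, as for H2-Ab1 from 85.4 to 30.6 and then to 11.8 FPKM. The lines of H2-DMb1 and Cd80 are flatter, and Cd74 stays at rank 1 of the 9 genes.

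One day of RANKL gave no call. Of the 9 genes, 0 passed the threshold in WT and 0 in KO, against 2.35% and 0.0211% of all genes tested (edgeR, adjusted p under 0.05), and at an unadjusted p under 0.05 the counts were 0 in WT and 2 in KO, H2-Ab1 and H2-Eb1, beside 2914 and 1456 of all 14241 genes tested. DESeq2 also called 0 in each. In WT the 3 libraries of day 1 did not sit together. H2-Aa stood at 110.1 CPM in the double-hyphen library numbered 1, 21.0 CPM in the single-hyphen library numbered 1 and 20.6 CPM in library 2, and Cd74 at 507, 203 and 167 CPM. The first of these was near the highest day 0 library, and the other two lay under the lowest day 0 library for H2-Aa but not for Cd74. Ciita ran otherwise, at 7.50, 0.842 and 11.4 CPM, lowest in the single-hyphen library numbered 1.

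In KO the 3 day 1 libraries were closer. H2-Aa stood at 45.3, 69.4 and 73.0 CPM, H2-Ab1 at 59.0, 98.0 and 74.3 CPM and Cd74 at 271, 417 and 282 CPM. For 6 of the 9 genes (H2-Aa, H2-Ab1, H2-Eb1, Ciita, H2-DMa and H2-DMb1) every day 1 library lay below every day 0 library, as it did for 10.6% of all genes tested, and Cd74, Cd80 and Cd86 overlapped. The largest log2 differences were -1.54 for H2-Eb1 (SE 0.693, adjusted p = 0.481) and -1.47 for H2-Ab1 (SE 0.596, adjusted p = 0.429). By mean CPM, 7 of the 9 genes stood in the order KO day 0, WT day 0, KO day 1, WT day 1, KO day 3 and WT day 3. Neighbours in that order overlapped, except KO day 3 and WT day 3 for H2-Ab1, H2-Eb1, H2-DMa and H2-DMb1, and WT day 1 and KO day 3 for Cd74.

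Between the labels no gene of the 9 was called by edgeR on any day. The shares of all genes tested that were called at an adjusted p under 0.05 were small too, 0.119% on day 0, 0.112% on day 1 and 0.140% on day 3. By the threshold of the study's methods (fold changes beyond 1.5 upwards or 0.66 downwards, at p under 0.05 before adjustment), 0 of the 9 were higher in KO on day 0 and 0 on day 1, against 2.89% and 3.34% of all genes, and 4 were higher on day 3, against 4.82%. DESeq2 called 0 on day 0, 0 on day 1 and 1 on day 3, H2-Ab1, beside 235 of all 14241 genes tested on day 3.

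The 4 genes of day 3 were the classical chains and H2-DMa. H2-Ab1 stood at 22.2, 12.2 and 40.0 CPM in KO and 4.65, 7.70 and 6.40 CPM in WT, a log2 difference of 1.99 (SE 0.629, adjusted p = 0.307). H2-Eb1 differed by 2.17 (SE 0.748, adjusted p = 0.337) and H2-DMa by 1.51 (SE 0.575, adjusted p = 0.384), and in these 3 genes and in H2-DMb1 (0.54, SE 0.280, adjusted p = 0.515) the lowest KO library lay above the highest WT library, as it did for 15.9% of all genes tested. H2-Aa differed by 2.41 (SE 0.817, adjusted p = 0.331) with overlap, since KO library 2 (3.92 CPM) lay below WT library 2 (4.53 CPM). The adjusted p of all 4 missed the threshold. The count of 4 became 1 without KO day 3 library 3, where 533 of 14530 genes tested passed, against 810 of 14241 in the full set.

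The remaining genes did not show that order on day 3. Cd74 differed by 1.25 (SE 0.620, adjusted p = 0.492) and Ciita by 0.78 (SE 0.756, adjusted p = 0.742). Cd80 differed by -0.07 (SE 0.249, adjusted p = 0.942) and Cd86 by -0.29 (SE 0.318, adjusted p = 0.767). On day 0 the 3 classical chains, Cd74, Ciita and both H2-DM genes had positive log2 differences of KO over WT, from 0.41 (H2-DMb1, SE 0.277) to 1.35 (H2-Eb1, SE 0.689), all with overlapping groups and adjusted p of 0.683 to 0.922, and Cd86 was lower in every KO library than in every WT library with a difference of -0.39 (SE 0.312, adjusted p = 0.848), a separation that 5.22% of all genes tested also had. The count by the study's threshold on day 0 became 4 without WT day 0 library 1, where 631 of 14567 genes tested passed (562 of 14241 in the full set), and 1 without KO day 0 library 2. That on day 1 became 4 without the double-hyphen WT day 1 library, where the number over all genes also rose, to 1456 of 14572 from 670 of 14241, and 1 without the single-hyphen WT day 1 library numbered 1.

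Whether the fall under RANKL differed between the labels was tested by the interaction of label and day. Of all genes tested, 0% were called, and of the 9 genes 0 were called and 0 had an unadjusted p under 0.05. DESeq2 called 0 of the 9 as well. The largest interaction was that of H2-Aa, 1.202 on the log2 scale (SE 1.08, adjusted p = 0.927), in the direction of a smaller fall in KO.

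**Figure D3:**
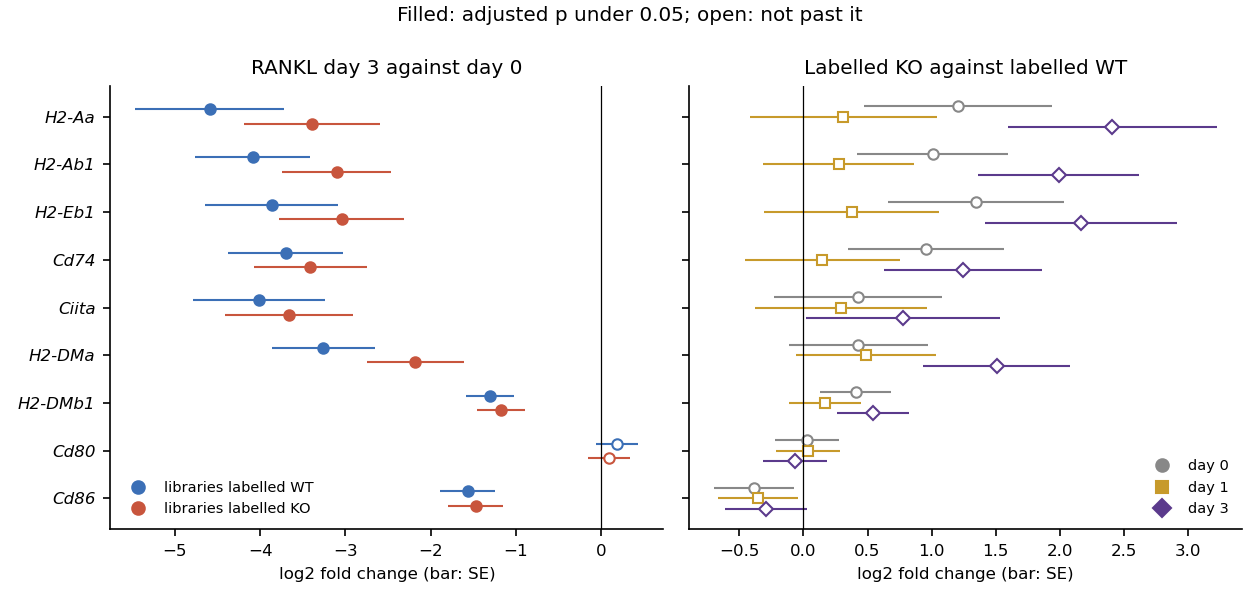
Log2 fold changes of the 9 genes with their standard errors, for day 3 against day 0 of RANKL in each label on the left and for KO against WT on each day on the right. Filled points passed an adjusted p under 0.05, which 8 genes did on the left in both labels and 0 did on the right.

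The 9 genes moved over the libraries in different degrees of likeness. Over the 18 libraries, which share the days of RANKL as well as their own depth and culture, the 4 genes H2-Aa, H2-Ab1, H2-Eb1 and Cd74 had Pearson correlations of log2 CPM with each other of 0.94 to 0.99. With the mean of these 4, H2-DMa correlated by 0.95 (standardized log2 CPM), H2-DMb1 by 0.94, Ciita by 0.86, Cd86 by 0.70 and Cd80 by -0.13. After the mean of each group was taken off, Cd74 still correlated with H2-Aa by 0.95, while Ciita did so by 0.36, and H2-DMa correlated with H2-DMb1 by 0.92. The 6 genes outside the 9 that were most like the mean of the 4, over 18 libraries, were Ltf (0.978), Ngp (0.978), Fcnb (0.974), Hdc (0.972), I830127L07Rik (0.971) and Stk10 (0.969). After the mean of each group was taken off, these 6 genes, chosen by their values over 18 libraries, still correlated by 0.85 (Stk10) to 0.91 (Fcnb). Ltf and Ngp encode proteins of neutrophil granules.

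The lists of other genes in the pathway were read from the same fits. Besides the 9 genes, 5 further class II chain genes were listed, of which 3 were tested. H2-DMb2, the copy of H2-DMb1, stood at 1.76 ± 0.106 CPM on day 0 and 0.366 ± 0.221 CPM on day 3 in WT (mean ± SD, n = 3) and fell by 2.24 (SE 0.512, adjusted p = 0.00253) there and by 1.27 (SE 0.473, adjusted p = 0.0419) in KO. H2-Oa, a chain of the H2-DM inhibitor H2-O, was called lower in WT (adjusted p = 0.0459) with 0 counts in every day 3 library and 0 to 18 counts on day 0, and was not called in KO. H2-Ob was not called in either label, and H2-Eb2 and H2-Ea-ps were not tested. The median log2 fold change of the 3 tested was -2.78 in WT, or -1.37 with H2-Oa and H2-Ob set to the bound that a floor of 3 counts a library gives, and -1.28 in KO.

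The factors that bind class II promoters with CIITA had no common direction. Of 7 such genes, 2 were higher and 1 lower in WT, and 0 were higher and 1 lower in KO, with medians of -0.11 and -0.24. Creb1, whose product binds the X2 box, fell by 0.73 (SE 0.181, adjusted p = 0.00423) in WT, and the Y box factors Nfyb and Nfyc rose by 0.49 (SE 0.155, adjusted p = 0.0177) and 0.45 (SE 0.123, adjusted p = 0.00735). The 3 subunits of the X box factor RFX, named here after their values were seen, were not called in WT, with log2 fold changes of 0.26 (Rfx5, SE 0.191), -0.11 (Rfxap, SE 0.170) and -0.48 (Rfxank, SE 0.237).

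The interferon gamma axis to Ciita fell in both labels. Of its 10 genes 8 were lower in WT and 8 in KO, and 0 were higher, with medians of -1.43 and -1.31. Irf4, a factor of B cells and dendritic cells, fell from 12.5 to 1.12 mean CPM in WT, by 3.48 (SE 0.5998, adjusted p = 0.000352), and by 2.11 (SE 0.563, adjusted p = 0.00857) in KO. Irf8, a factor of the monocyte and dendritic cell lineage, fell by 2.56 (SE 0.370, adjusted p = 9.5e-05) and 2.28 (SE 0.366, adjusted p = 0.000343), and Irf1, which acts on a Ciita promoter, by 1.93 (SE 0.265, adjusted p = 6.55e-05) and 1.33 (SE 0.261, adjusted p = 0.00129).

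Most genes of peptide processing fell in both labels, and most of class II turnover in WT. Of 6 genes of peptide processing 5 were lower and 1 higher in WT, and 5 lower and 0 higher in KO, with medians of -1.76 and -1.497. The lysosomal proteases Ctsb, Ctss and Ctsd fell in WT by 2.19 (SE 0.363), 1.87 (SE 0.495) and 1.78 (SE 0.438), at adjusted p of 0.000264 to 0.00645, and Ctss, which cleaves the invariant chain, went from a mean of 4362 to 1197 CPM. Of 3 genes of class II turnover 2 were lower in WT and 1 in KO, with medians of -2.95 and -2.05. March1, the ubiquitin ligase that takes class II and CD86 off the surface, fell by 3.13 (SE 0.415, adjusted p = 5.23e-05) in WT and 2.27 (SE 0.400, adjusted p = 0.000642) in KO, and Cd83, which opposes it, by 2.95 (SE 0.841, adjusted p = 0.00979) in WT, with -2.05 (SE 0.808, adjusted p = 0.0528) in KO.

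Other ligands of T cells went both ways. Of 9 listed, 7 were tested, 2 were higher and 4 lower in WT, and 1 was higher and 3 lower in KO, with medians of -1.28 and -0.87. Cd276, the checkpoint ligand B7-H3, rose from 3.80 to 55.5 mean CPM in WT, by 3.85 (SE 0.594, adjusted p = 0.000154), and by 3.03 (SE 0.565, adjusted p = 0.000939) in KO. Icosl, the ligand of ICOS, fell by 3.19 (SE 0.432, adjusted p = 5.84e-05) and 1.78 (SE 0.406, adjusted p = 0.00336), and Cd40, the receptor of CD40 ligand, by 2.34 (SE 0.348, adjusted p = 0.000116) in WT. In KO Cd40 was 2.83-fold lower (SE of 0.338 on the log2 scale, adjusted p = 0.00314).

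Most genes of class I presentation fell. Of 12 genes 9 were lower and 2 higher in WT, and 9 lower and 1 higher in KO, with medians of -1.24 and -1.16. Nlrc5, the class I counterpart of Ciita, fell by 1.95 (SE 0.275, adjusted p = 8.03e-05) in WT and 1.58 (SE 0.272, adjusted p = 0.000533) in KO, H2-D1 by 1.72 (SE 0.345, adjusted p = 0.00103) and 1.64 (SE 0.344, adjusted p = 0.00202), and the peptide transporter subunit Tap1 by 1.65 (SE 0.275, adjusted p = 0.000272) and 1.27 (SE 0.273, adjusted p = 0.00229). H2-D1 is also a gene whose promoter held the pair of X1 core and ATTGG. In none of these 7 lists was a gene called between the labels on any day.

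**Figure D4:**
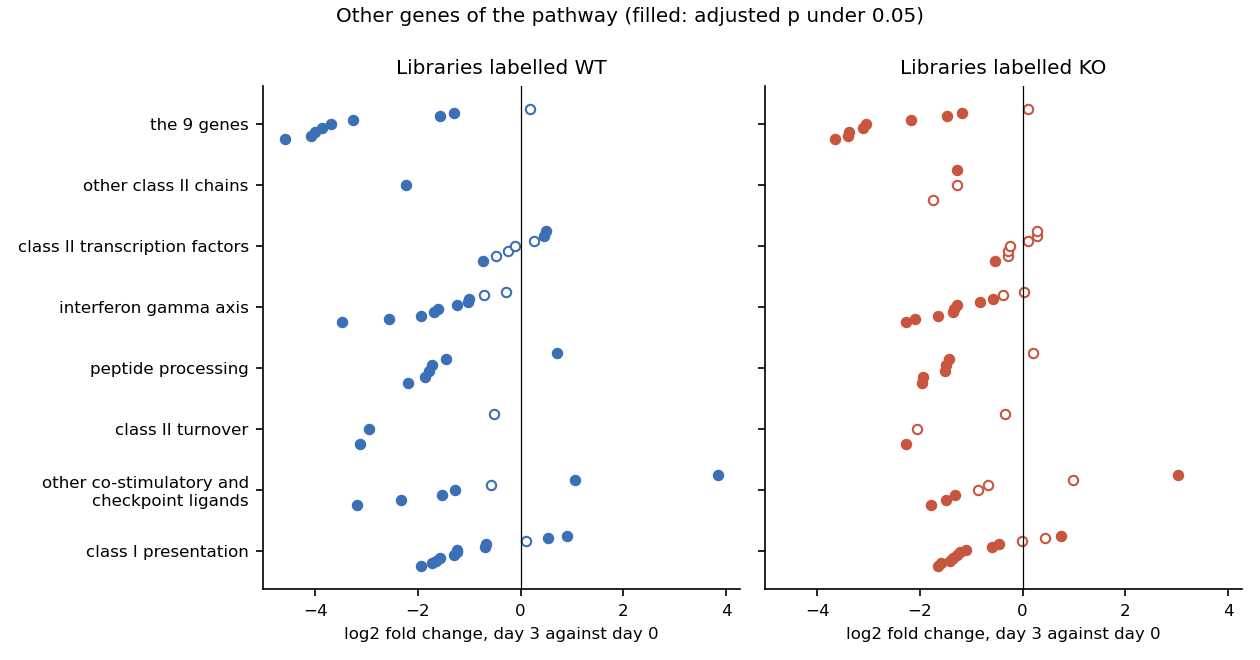
Log2 fold change of day 3 against day 0 of RANKL for the 9 genes and 7 lists of related genes, with libraries labelled WT on the left and KO on the right. Each point is a tested gene, filled at an adjusted p under 0.05, and H2-Oa and H2-Ob in WT are left out because their day 3 counts were at the floor. The 9 genes have medians of -3.70 and -3.04, and the class II transcription factors, with medians of -0.11 and -0.24, lie around 0.

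Markers of other cell types moved with the class II genes. All 7 neutrophil markers were lower on day 3 in both labels, and their summed level was 517 to 2477 CPM in WT and 3044 to 10071 CPM in KO on day 0, 279 to 1708 and 1233 to 2617 CPM on day 1, and 29.3 to 55.1 and 78.0 to 989.9 CPM on day 3. The summed level of H2-Aa, H2-Ab1, H2-Eb1 and Cd74 was 223 to 907, 239 to 816 and 28.9 to 52.8 CPM in WT on days 0, 1 and 3 and 694 to 1607, 406 to 629 and 42.4 to 209 CPM in KO. KO day 3 library 3 was the highest of its group in both sums. It was also the highest in the sums of B cell, dendritic cell, macrophage, T or NK cell and stromal markers. In the sum of osteoclast markers it was the lowest, at 8145 CPM against 12063 and 17542 CPM in libraries 1 and 2. The neutrophil granule genes Ngp, Camp and Mpo fell by 5.93 (SE 1.09), 5.60 (SE 1.09) and 5.05 (SE 1.21) in WT on the log2 scale. Of 8 B cell markers 6 were lower in WT and 3 in KO, and their summed level, mostly Ighm on day 0, was 376 to 446 and 397 to 464 CPM on day 0 and 31.5 to 47.9 and 54.6 to 125 CPM on day 3. Ebf1, named after its values were seen, ran the other way without a call. It went from 10, 22 and 157 counts on day 0 to 318, 350 and 284 on day 3 in WT. In KO it went from 171, 38 and 130 counts to 553, 441 and 531. The 8 markers together had 775, 815 and 562 counts on day 3 in WT, so Ebf1 was a large part of that sum. In WT day 0 library 2 the B cell markers Cd79a, Ms4a1 and Pax5 had 0 counts each, Ebf1 had 22, Cd79b 74, Cd22 256 and Ighm 5174, and H2-Aa had 313 counts (24.2 CPM); these markers are named after their values were seen. Of 11 dendritic cell markers 8 were tested, and 1 was higher and 3 lower in WT and 2 lower in KO. Their median log2 fold changes were -2.52 in WT (-1.08 with Cd209a at its bound) and -1.32 in KO. Their summed level, led by Fscn1, ran the other way. It went from 32.0 to 108 CPM on day 0 to 121 to 224 CPM on day 3 in WT and from 91.4 to 184 CPM to 169 to 380.0 CPM in KO.

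Among the tested dendritic cell markers Batf3, Dpp4 and Siglech fell in WT, all from means of 4 CPM or less, and Flt3, Xcr1 and Clec9a, named after their values were seen, were too low to be tested. Of 8 macrophage markers 7 were lower in both labels, with medians of -2.40 and -1.93, and their summed level went from 28924 to 56902 CPM on day 0 to 6174 to 12793 CPM on day 3 in WT and from 33169 to 59505 CPM to 8451 to 17117 CPM in KO. Of 6 T or NK cell markers 1 was tested and was lower in both labels (Nkg7), and of 6 stromal markers 4 were higher in WT and 5 in KO, with summed levels of 66.3 to 4006 CPM in WT and 859 to 3058 CPM in KO on day 0 and 9606 to 12542 CPM and 16609.9 to 24925 CPM on day 3. No marker of these 7 cell types was called between the labels on any day. On day 3 all 7 neutrophil and all 8 B cell markers had positive fitted values of KO over WT, with medians of 3.39 and 2.69 (1.45 for the B cell markers with 4 genes at their bounds). All 6 stromal and all 8 tested dendritic cell markers were positive there too, with medians of 1.08 and 0.82. All 9 osteoclast markers were negative, with a median of -0.57, and the macrophage markers went both ways. Cd79b, a B cell receptor chain named after its value was seen, differed by 2.59 (SE 0.549, adjusted p = 0.0992). The part of other cells in the class II levels was not tested.

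**Figure D5:**
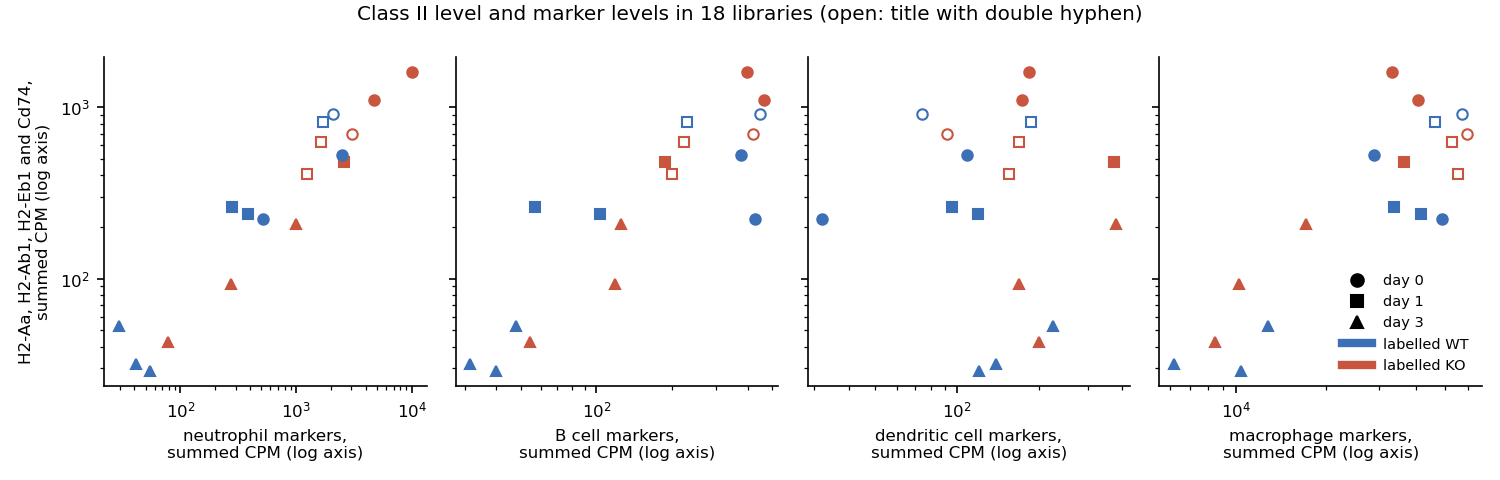
Summed CPM of H2-Aa, H2-Ab1, H2-Eb1 and Cd74 against the summed CPM of neutrophil, B cell, dendritic cell and macrophage markers in the 18 libraries, all on log axes. Circles, squares and triangles are days 0, 1 and 3, blue is WT and red is KO, and open symbols have a double hyphen in the title. Class II levels and neutrophil marker levels lie along 1 band, while the dendritic cell panel, whose sum is led by Fscn1, shows no such band.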

How the data were processed

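Total RNA was extracted on columns, and mRNA libraries were made and sequenced by the authors. The deposited table holds the authors' raw read counts per gene and their FPKM values, which they computed with StringTie and Ballgown. The submitters' processing notes name GRCm38.p4 and mm10, and the aligner and counter are not given in the sources used here. The table holds no unmapped columns and no comparison columns were used. Groups came from the sample titles.

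Genes were kept by edgeR's filterByExpr (14241 of 34745), scaled by TMM and fitted in 1 quasi-likelihood model with 6 groups over all 18 libraries (edgeR 4.0.16, R 4.3.3), with Benjamini-Hochberg adjustment over all genes tested and calls at an adjusted p under 0.05. The study's methods also used edgeR, and their threshold is quoted where it is used. CPM are per library of the TMM-scaled total, and counts limit the precision of low genes such as Ciita. Title style was tested in a model with the 6 groups. DESeq2 1.42.0, other scalings and filters, library omissions, a replicate block and a title style term were the alternatives.

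Members and gene lists were chosen with earlier results of these data known. Of each list up to 3 genes called in WT between days 0 and 3 with the largest change, and each marker list's highest gene, were to be named, leaving out folds of genes at 3 counts or fewer in all libraries of a group. In KO, same-numbered libraries of days 0 and 3 deviated together (correlations of 0.130 to 0.398 in 3 of 3 pairs), in WT in 1 of 3 (-0.023 to 0.111), and between WT and KO on day 3 in 0 of 3. What the replicate numbers stand for is not given in the sources used here.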

Additional observations from a re-analysis of the deposited data

How the results depend on the processing

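Of 1188 values of single genes recomputed, 1137 kept their direction and side of the threshold, 50 reversed, 0 of them called at first, and H2-Ab1 between the labels on day 3 passed the threshold under DESeq2. The 8 genes called between days 0 and 3 in each label stayed called in all alternatives, with the replicate block too, which changed no other call. Between the labels on day 3, DESeq2 called 1 gene. By the study's threshold on day 0, 1 gene here passed with total counts as scaling, beside 545 of all 14241 tested. With DESeq2 1 passed, beside 649, and with a title style term 2 passed, beside 808. Without the 5 double-hyphen libraries 5 passed, beside 889 of 15011 genes tested. On day 1 that setting left library 3 alone in KO, so no count is read from it. Leaving out 1 library, the counts of the genes described here ranged from 0 to 4 on day 0 and on day 1. On day 3 they ranged from 1 to 6. Over all alternatives, the number of all genes that passed ranged from 318 to 1903 on day 0 (562 as reported). That number ranged from 373 to 1456 (670) on day 1 and from 533 to 1504 (810) on day 3.

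Reversed log2 values were all of genes that were not called. Without the double-hyphen libraries Cd80 became -0.16 between the labels on day 0, and the interactions became -0.53 for Cd74, -0.25 for Ciita, -0.27 for H2-DMb1 and 0.084 for Cd80. With both WT day 1 libraries numbered 1 summed, Cd80 between the labels on day 1 became -0.012. With the replicate block the interaction of Cd74 became -0.052, and the title style differences of Cd80 and Cd86 became 0.19 and 0.31. Leaving out 1 library, Cd80 ranged from -0.0052 to 0.46 in WT and -0.14 to 0.31 in KO between days 0 and 3, and from -0.19 to 0.28, -0.14 to 0.16 and -0.30 to 0.041 between the labels on days 0, 1 and 3. Cd86 ranged from -0.47 to 0.070 between the labels on day 3. Between days 0 and 1 in WT, H2-Aa ranged from -1.71 to 0.10, Cd74 from -0.83 to 0.37 and H2-DMb1 from -0.59 to 0.021. Between the labels on day 1, H2-Aa ranged from -0.066 to 1.58, H2-Ab1 from -0.080 to 1.31, H2-Eb1 from -0.067 to 1.65, Cd74 from -0.14 to 0.80, Ciita from -0.24 to 0.96 and H2-DMb1 from -0.10 to 0.50. The interactions ranged from -0.35 to 0.13 for Cd80, -0.095 to 0.46 for Cd86, -0.59 to 0.71 for Cd74, -0.15 to 0.72 for Ciita and -0.15 to 0.26 for H2-DMb1. The cause of these changes was not tested.

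Over all genes, the number called ranged over the alternatives from 5724 to 7746 (7143 as reported) between days 0 and 3 in WT, from 4444 to 6668 (6046) in KO, from 0 to 1809 (335) and from 0 to 175 (3) between days 0 and 1, from 6 to 196 (17), 3 to 131 (16) and 9 to 235 (20) between the labels on days 0, 1 and 3, from 0 to 4 (0) for the interaction and from 1322 to 4081 (3310) for title style. Scaling by total counts moved the median of all genes by 0.36 in WT and 0.29 in KO between days 0 and 3, and no direction of the 8 genes changed. The low counts of Ciita on day 3 limit the precision of its fold.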
